A study of Mus musculus with 40 samples.

Results

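The 9 genes described here encode enzymes and 1 regulatory protein of a single metabolic route, from the synthesis of arginine through nitric oxide and ornithine to the polyamines. They are Ass1, Asl, Nos1, Arg2, Odc1, Oaz1, Amd1, Srm and Sms. All 9 were found by symbol among the 56980 genes of the count table, and 9 of 9 passed the filter on low counts that left 17880 genes for testing. The members were chosen by name as a pathway, but with earlier results of these data in view. Which measured values guided that choice is not recorded, so every comparison below may have been used for it. Levels and fold changes are therefore given as a description, and adjusted p-values are those of a fit over all 17880 genes.

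The libraries, 8 groups of 5, hold RNA of the medial prefrontal cortex; the mice were female, wild type and of the strain C57BL/6J. Adolescents entered at postnatal day 25 and adults at postnatal day 55. Within each age, mice drank water or water with antibiotics (Abx) and received subcutaneous saline or morphine at 15 mg/kg for 5 days. The groups are thus adolescent or adult, on water or antibiotics, with saline or morphine. The saline groups on water are the untreated controls of each age, and all mice carry injections and an unmodified genotype. The sources used here do not name the antibiotics or the time from the last injection to tissue collection. Nothing in the labels says whether a library is 1 mouse or a pool, so the p-values measure the spread between libraries.

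Arginine is rebuilt from citrulline and aspartate by argininosuccinate synthase (Ass1) and argininosuccinate lyase (Asl). Nitric oxide synthases consume arginine to make nitric oxide, a diffusible messenger, and return citrulline. In cortex the neuronal enzyme Nos1 is strongest in sparse interneurons that also make somatostatin and neuropeptide Y. Arginase (Arg2 is the mitochondrial form) diverts arginine to ornithine, the substrate of ornithine decarboxylase (Odc1), which makes putrescine. Adenosylmethionine decarboxylase (Amd1) supplies the aminopropyl donor that spermidine synthase (Srm) and spermine synthase (Sms) add in turn. Antizyme (Oaz1) binds ornithine decarboxylase and directs it to the proteasome, and polyamines promote the ribosomal frameshift that antizyme synthesis needs.

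The frameshift window of Oaz1 is shown because antizyme protein depends on it as well as on the mRNA level measured here. The window of 60 bases was taken from the GENCODE M21 transcript Oaz1-206. Counted from the first ATG of another Oaz1 transcript, which holds the bases before the site, the upstream reading frame ends after 68 codons. The gene lies on the plus strand at chr10:80826656-80829290 (GRCm38.p6). Capitals mark the codon TCC and the stop codon TGA at which ribosomes change frame.
Oaz1 frameshift window: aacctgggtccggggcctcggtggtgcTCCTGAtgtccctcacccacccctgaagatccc

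The promoters of Ass1 and Amd1 are shown because Ass1 had the largest called difference between ages and Amd1 the largest called difference between treatments. RefSeq windows (GRCm38.p6) covering the 250 bases before the start were at hand for 6 of the 9 members. Capitals mark matches, on either strand, to the E-box CACGTG, the GC box GGGCGG and the cAMP half-site TGACG. These letters occur in 6.02%, 32.7% and 17.8% of 32851 promoter windows of that length. The Ass1 window, chr2:31470020-31470269 on the plus strand, is 75.6% G and C and holds 1 GC box and 1 E-box. The Amd1 window, chr10:40302189-40302438 on the minus strand, is 64.4% G and C and holds 1 GC box and 1 half-site in reverse orientation. A match is a string of letters and not a measured binding site.
Ass1 promoter: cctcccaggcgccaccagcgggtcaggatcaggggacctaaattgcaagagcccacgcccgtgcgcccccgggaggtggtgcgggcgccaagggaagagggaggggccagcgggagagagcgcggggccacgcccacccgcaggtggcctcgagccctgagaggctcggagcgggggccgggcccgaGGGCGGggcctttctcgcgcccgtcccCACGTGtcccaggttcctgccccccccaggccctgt
Amd1 promoter: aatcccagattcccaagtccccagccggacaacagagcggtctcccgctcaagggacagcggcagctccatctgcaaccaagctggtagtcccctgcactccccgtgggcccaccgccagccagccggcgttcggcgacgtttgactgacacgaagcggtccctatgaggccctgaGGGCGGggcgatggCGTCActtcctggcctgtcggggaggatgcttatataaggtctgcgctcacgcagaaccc

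The 40 libraries held 8636712 to 12098769 counted reads each. Markers of cortical excitatory neurons were abundant, with Slc17a7 at no less than 1508 and Tbr1 at no less than 113 CPM in any library (counts scaled to the library size), and Drd2, a striatal marker, averaged 0.989 CPM. The summed level of 7 oligodendrocyte markers differed between ages. It ranged from 1123 to 2124 CPM in the 20 adolescent libraries and from 784 to 1522 CPM in the 20 adult libraries, and all 7 markers were lower in adults. In bulk tissue, fewer cells of a type and less RNA per cell cannot be told apart. A fit that carries this summed level as a covariate was added after the data were seen, and its values stand beside the results it touches.

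Several members share sequence with other genes, so their counts are uncertain where reads match another gene as well. A low count of a copy does not show how such reads were treated. Of the distinct 50-base words in Amd1 transcripts, 78.1% also occur in another gene, mainly Amd2 (76.7%). Amd2 itself drew 1 to 33 reads per library, against 522 to 933 for Amd1. Ass1 shares 38.6% of its words with Gm5424, which drew at most 9 reads. The shares were 24.3% for Odc1 (with 16 other genes), 21% for Oaz1 (mainly Oaz1-ps, 11 to 44 reads), 17.5% for Sms (mainly Sms-ps, 2 to 18 reads), 2.01% for Srm and 0 for Asl. Arg2 overlaps Vti1b on the opposite strand along 285 exonic bases, and Nos1 overlaps the antisense transcript Gm26995 along 268. Vti1b drew 911 to 1574 reads per library, against 28 to 70 for Arg2. Gm26995 drew 27 to 61, against 382 to 898 for Nos1. The sources used here give no strand setting for the counting, so Arg2 and Nos1 are read as uncertain in that respect.

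Per kilobase of exon, antizyme mRNA stood far above the enzymes. The mean level over 40 libraries was 62.8 ± 6.77 CPM per kilobase (SD) for Oaz1, and its lowest library, at 45.8, lay above every library of every other member. Srm at 23.4 ± 2.13 and Amd1 at 21.3 ± 2.23 CPM per kilobase came next and did not differ beyond their spread. They were followed by Sms at 15.6 ± 1.32 and Odc1 at 12.4 ± 0.94. Ass1 averaged 9.83 ± 2.29 CPM per kilobase and Nos1 5.84 ± 1.18. The lowest levels were those of Arg2 at 3.40 ± 0.762 and Asl at 2.30 ± 0.339. Lengths were the union of exons over all annotated transcripts (4831 bases for Asl, 2558 for Oaz1), so the order depends on them. Not scaled to length, Asl at 11.1 CPM was above Arg2 at 4.86 CPM. Shared sequence, as in Amd1 and Ass1, was not corrected for. Below Oaz1, the ranges of neighbours in this order overlapped at every step. The polyamine branch nevertheless lay above the arginine and nitric oxide branch, member for member, by mean level per length. In CPM not scaled to length this did not hold, since Nos1 averaged 65.1 CPM, Odc1 42.2 CPM and Srm 37.4 CPM.

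**Figure D1:**
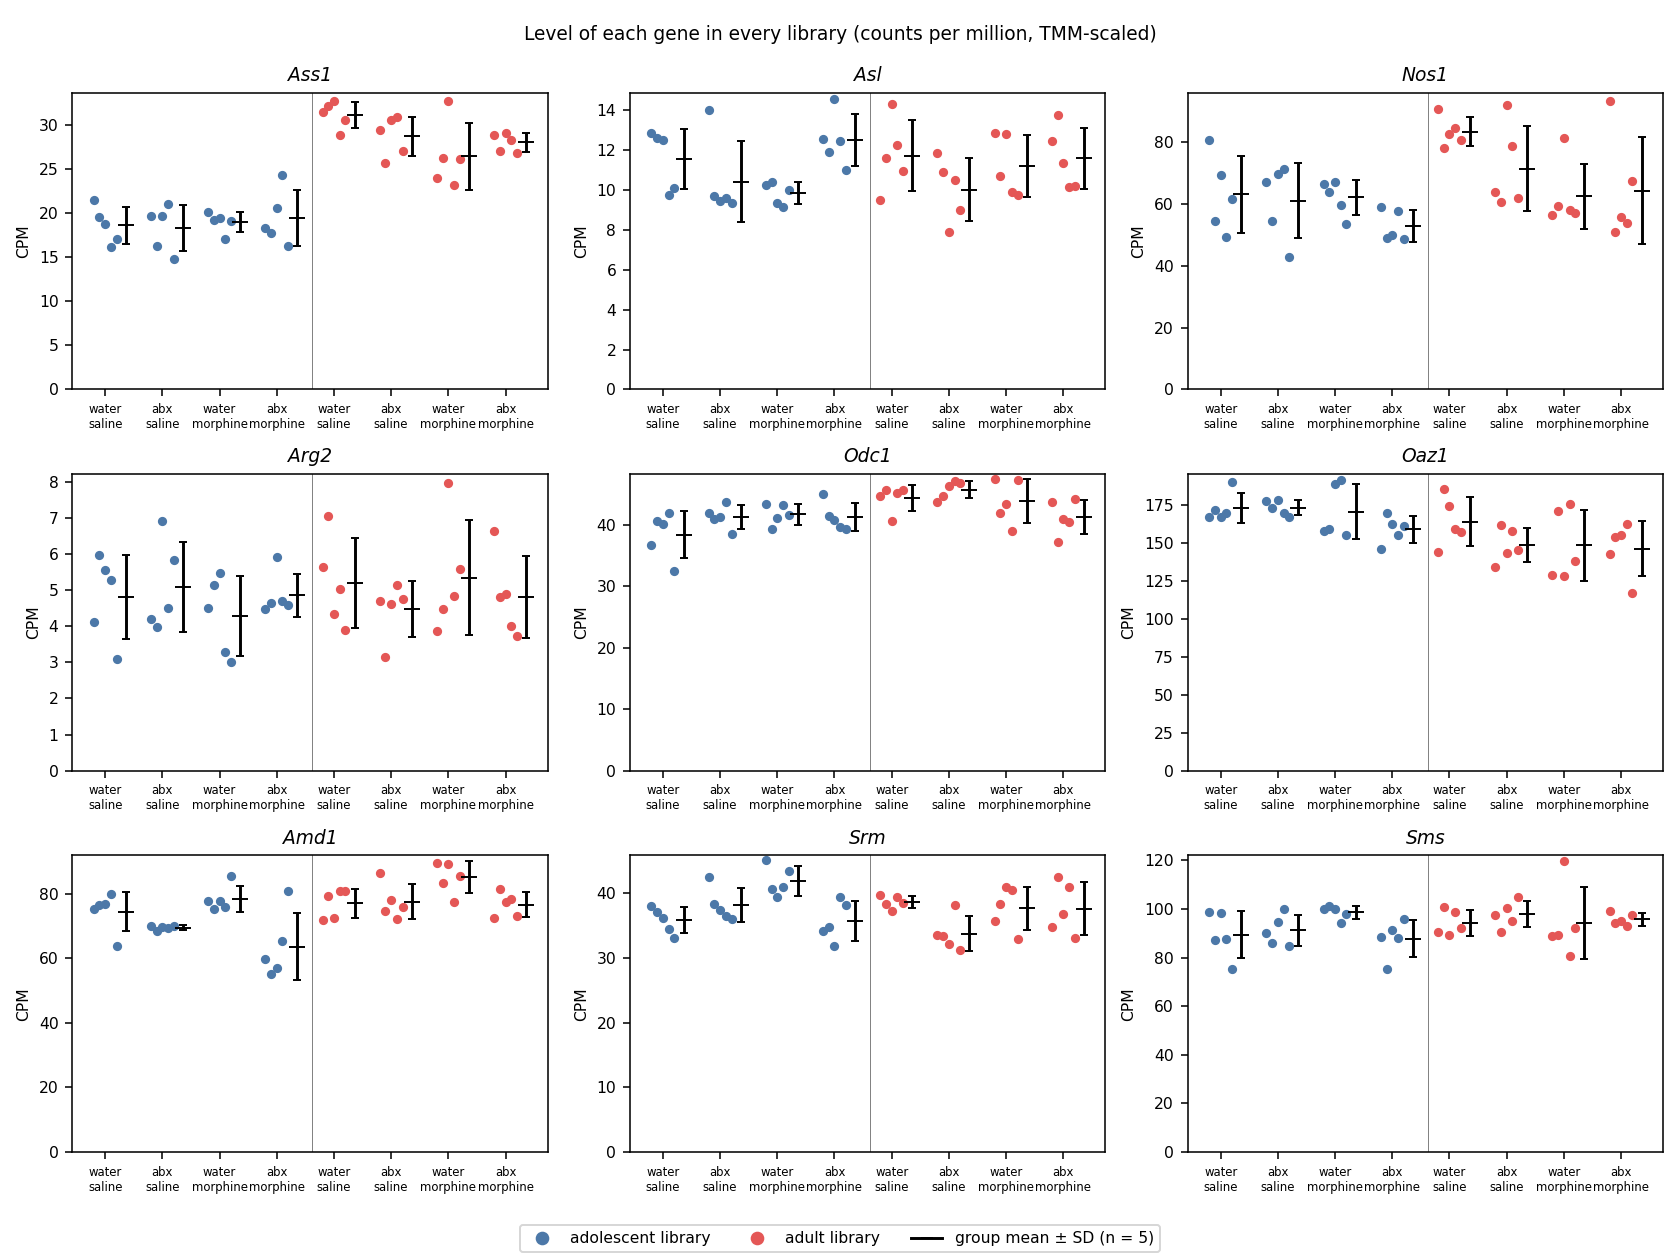
Level of each of the 9 genes in each of 40 libraries, in CPM on library sizes scaled by the trimmed mean of M values, by group; points are libraries and bars are the group mean ± SD (n = 5). Ass1 sits at 14.8 to 24.4 CPM in adolescents and 23.2 to 32.8 CPM in adults, while the other members overlap widely between ages.

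Ass1, on the plus strand at chr2:31470270-31520670, was the member that separated the ages. With water and saline the adolescent libraries read 21.5, 19.6, 18.8, 16.2 and 17.0 CPM and the adult libraries 31.5, 32.1, 32.8, 28.9 and 30.6 CPM. Every adult library was above every adolescent library. With antibiotics and saline the adolescents read 19.7, 16.3, 19.7, 21.1 and 14.8 CPM and the adults 29.4, 25.7, 30.6, 30.9 and 27.05 CPM. With water and morphine the adolescents read 20.2, 19.3, 19.4, 17.0 and 19.1 CPM and the adults 24.0, 26.2, 32.8, 23.2 and 26.1 CPM. With antibiotics and morphine the adolescents read 18.3, 17.8, 20.7, 24.4 and 16.2 CPM and the adults 28.8, 27.1, 29.1, 28.3 and 26.8 CPM. The ranges did not overlap within any of the 4 treatments, and these 4 comparisons share no library. Across treatments the ages did meet, since the highest adolescent library (24.4 CPM) exceeded the lowest adult ones.

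The Ass1 difference between ages was 1.68-fold with water and saline (log2 fold change 0.75 ± 0.10, SE; edgeR quasi-likelihood test, adjusted p = 2.42e-06). It was 1.56-fold with antibiotics and saline (0.64 ± 0.10, adjusted p = 2.75e-05), 1.39-fold with water and morphine (0.47 ± 0.10, adjusted p = 0.00694) and 1.44-fold with antibiotics and morphine (0.52 ± 0.10, adjusted p = 0.00188). Averaged over the 4 treatments, adults were 1.51-fold higher (0.60 ± 0.05, 95% interval 0.50 to 0.69, adjusted p = 2.43e-13). No difference between treatments in the age difference passed the test, which does not show that there was none. The largest was that the morphine effect on water was lower in adults by 0.27 ± 0.14 on the log2 scale. Its 95% interval was -0.55 to 4e-04 and its edgeR adjusted p 0.499. With the oligodendrocyte marker level as a covariate, the 4 differences were 0.52, 0.52, 0.47 and 0.36 on the log2 scale, with adjusted p-values of 0.0296, 0.000323, 0.00119 and 0.043, and the average was 0.47.

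Read against the table as a whole, 1 of 9 members was called with age on water and saline, where 0.257% of all genes were called. On antibiotics and saline 1 of 9 was called beside 5.97% of all genes, and on water and morphine 1 of 9 beside 0.928%. On antibiotics and morphine 2 of 9 were called, Ass1 and Amd1, beside 1.04%. Averaged over treatments, 5 of 9 were called (4 higher and 1 lower in adults) beside 17.9% of all genes. Members with ranges that did not overlap between ages numbered 1, 4, 1 and 1 of 9 in the same order of treatments, where 1.95%, 6.27%, 3.61% and 3.19% of all genes had such ranges.

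**Figure D2:**
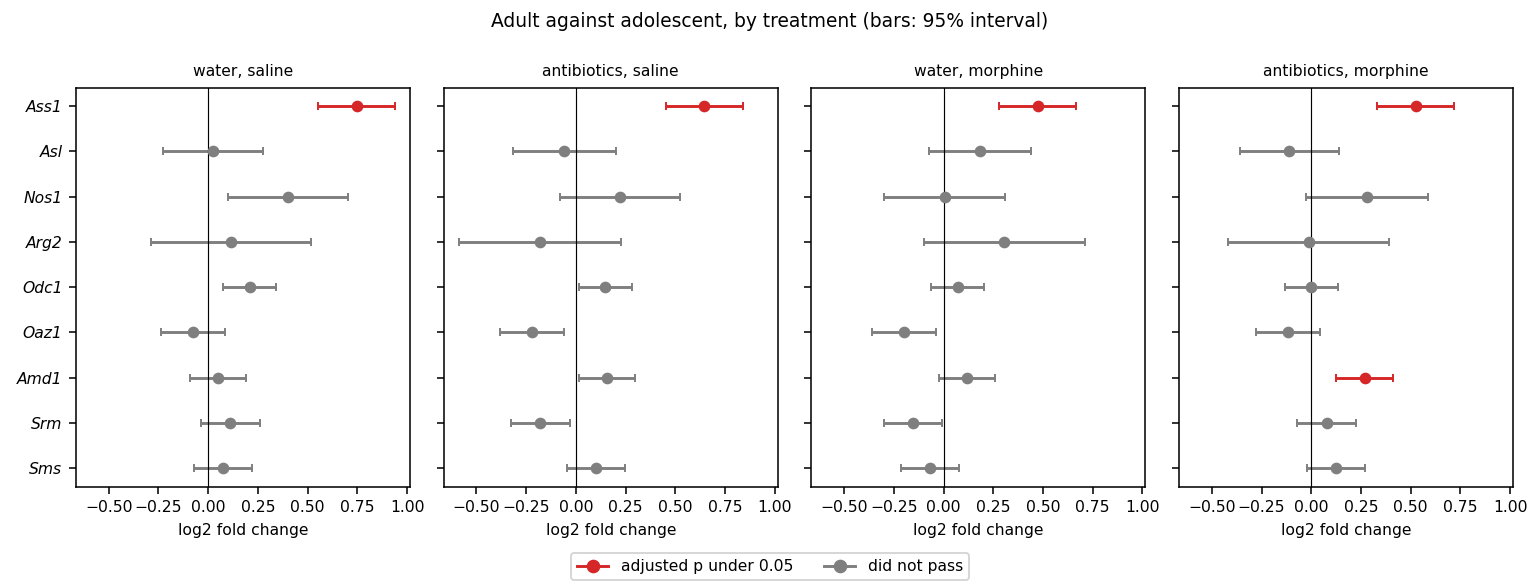
Log2 fold change of adults over adolescents for each of the 9 genes in each of the 4 treatments, with 95% intervals; red points passed an adjusted p of 0.05 over all genes. Ass1 is to the right of 0 in all 4 panels, at 0.75, 0.64, 0.47 and 0.52, and Amd1 is red only with antibiotics and morphine, at 0.27.

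Nos1, on the plus strand at chr5:117866839-117958840, was the most variable of the abundant members within groups, with a mean within-group coefficient of variation of 15.9%, against 5.86% for Odc1. On water and saline the adolescent libraries read 80.8, 54.5, 69.5, 49.2 and 61.4 CPM and the adult libraries 90.6, 78.2, 82.5, 84.6 and 80.5 CPM. The groups overlapped through a single adolescent library. The adults on water and morphine read 56.4, 59.2, 81.2, 58.2 and 57.1 CPM, of which 1 library stood with the saline adults and the other 4 lay well under them. Averaged over treatments, Nos1 was 1.17-fold higher in adults (0.23 ± 0.08 on the log2 scale, edgeR adjusted p = 0.0333).

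This age difference moved with the oligodendrocyte markers. With their level as a covariate the Nos1 estimate turned to -0.09 ± 0.04 on the log2 scale (edgeR adjusted p = 0.25). It also missed the threshold when any of 11 of the 40 libraries was left out, with adjusted p-values from 0.051 to 0.0679. These were adolescent water saline replicates 2 and 4, adolescent antibiotics saline replicates 2 and 5, adolescent water morphine replicate 5, adolescent antibiotics morphine replicate 3, adult antibiotics saline replicates 3 and 4, adult water morphine replicate 3, and adult antibiotics morphine replicates 1 and 5. In adults on water, Nos1 with morphine was lower by 0.42 ± 0.15 on the log2 scale without passing the test (adjusted p = 0.25). There the summed oligodendrocyte level was 996 ± 48.8 CPM with saline and 1368 ± 164 CPM with morphine (SD, n = 5), and the covariate fit gave -0.03 ± 0.08.

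Each member was also set against 11 lists of cell type markers across single libraries, and 11 of 99 such relations passed the adjustment for both coefficients. With group means removed, log2 Nos1 and the log2 summed oligodendrocyte level correlated at Pearson r = -0.893 and Spearman rho = -0.88 over 40 libraries (100000 permutations within groups, p = 1e-05 for each, the smallest they can give; adjusted over 135 relations, 0.0013). Without the 2 libraries farthest from the median r was -0.861. It was -0.862 within the 20 adolescent and -0.923 within the 20 adult libraries. Ass1 followed the same markers less closely, at r = -0.605 (permutation p = 0.00017, adjusted 0.0061) and rho = -0.623 (p = 0.00039, adjusted 0.011). Without the 2 farthest libraries its r was -0.626, and it was -0.659 in adolescents and -0.549 in adults. Among the other lists, only the excitatory neuron markers passed with both genes. Ass1 and the GABAergic interneuron markers gave r = -0.362 (permutation p = 0.031, adjusted 0.14) and rho = -0.35 (p = 0.045, adjusted 0.18) and did not pass. Nos1 correlated with GABAergic interneuron markers at r = -0.554 (permutation p = 0.00024, adjusted 0.0063) and rho = -0.648 (p = 4e-05, adjusted 0.0027), with -0.515 after leaving out 2 libraries. With excitatory neuron markers it gave r = 0.51 (permutation p = 0.0021, adjusted 0.029) and rho = 0.547 (p = 0.0016, adjusted 0.027), with 0.497 after leaving out 2. Ass1 and the excitatory markers gave r = 0.527 (permutation p = 0.0038, adjusted 0.037) and rho = 0.509 (p = 0.0025, adjusted 0.031), with 0.419 after leaving out 2. The markers of the somatostatin and neuropeptide Y interneurons did not follow Nos1 across ages: Sst was lower in adults by 0.30 ± 0.05 and Npy by 0.40 ± 0.06 on the log2 scale (edgeR adjusted p = 3.31e-05 and 2.01e-05). Their list (Sst, Npy, Chodl, Tacr1), of which Chodl did not pass the filter on low counts, summed to 213 to 350 CPM in adolescents and 162 to 284 CPM in adults. Between libraries, with group means removed, Nos1 and this list gave r = -0.452 (permutation p = 0.0092, adjusted 0.063). Their rho was -0.479 (permutation p = 0.0042, adjusted 0.036), so only rho passed, and r was -0.385 after leaving out 2 libraries.

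**Figure D3:**
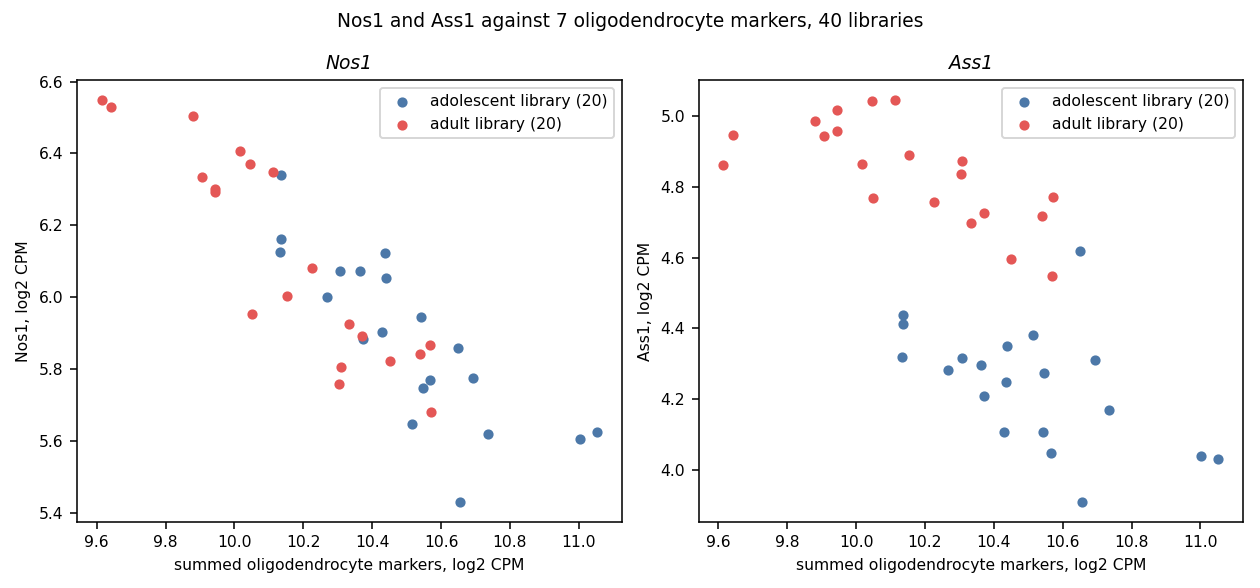
Log2 CPM of Nos1 (left) and Ass1 (right) against the log2 of the summed CPM of 7 oligodendrocyte markers, each point being 1 of 40 libraries coloured by age. Nos1 falls along a single band through both ages, while Ass1 forms an adult band above an adolescent band, and both fall as the markers rise (within-group r = -0.893 and -0.605).

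Asl, on the minus strand at chr5:130011258-130024381, was not called with age. It averaged 11.1 ± 1.69 CPM over the 20 adolescent and 11.1 ± 1.63 CPM over the 20 adult libraries, a log2 difference of 0.01 with a 95% interval of -0.12 to 0.14. The interval for Asl, the enzyme after Ass1 in arginine synthesis, lies wholly below that of Ass1 (0.50 to 0.69). Arg2, on the plus strand at chr12:79130788-79156301, was the least counted member, with 28 to 70 reads per library. Its age difference averaged over treatments was 0.06 with an interval of -0.15 to 0.26 on the log2 scale, and no comparison of Arg2 passed the test. Its mean within-group coefficient of variation was 22.6%, so only large changes would have been detectable.

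In the polyamine branch the age differences were small and went in both directions. Oaz1 was lower in adults, at 152 ± 17.7 CPM against 169 ± 12.13 CPM (SD, n = 20), a log2 difference of -0.15 ± 0.04 (edgeR adjusted p = 0.00476). Odc1, the target of antizyme, on the plus strand at chr12:17544808-17551502, was higher in adults, at 43.8 ± 2.91 CPM against 40.6 ± 2.703 CPM (0.11 ± 0.03, adjusted p = 0.0175). Amd1, on the minus strand at chr10:40287458-40302188, was higher in adults, at 79.0 ± 5.62 CPM against 71.5 ± 8.16 CPM (0.15 ± 0.04, adjusted p = 0.00188). The ranges of the 2 ages overlapped widely for all 3 genes. With the oligodendrocyte covariate Amd1 was at 0.20 (adjusted p = 0.00142), whereas Odc1 at 0.08 (adjusted p = 0.269) and Oaz1 at -0.12 (adjusted p = 0.162) no longer passed. With no filter on low counts Odc1 also missed the threshold (adjusted p = 0.109).

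Other marker lists correlated with Oaz1 between libraries, while with age their sums overlapped between adolescents and adults. With age, averaged over treatments, 17.9% of all genes were called in either direction. Oligodendrocyte precursor markers were lower in adults for 5 of 5 genes with 2 called (214.9 to 346 CPM in sum in adolescents, 187 to 289 CPM in adults). Microglia markers were lower for 6 of 6 with none called (205 to 357 against 203 to 327 CPM), and endothelial markers for 4 of 6 with 1 called (173 to 307 against 173 to 271 CPM). The microglia and endothelial calls did not exceed the share of all genes. With group means removed, Oaz1 correlated with the precursor markers at r = 0.522 (permutation p = 0.00066, adjusted 0.013) and rho = 0.539 (p = 0.00063, adjusted 0.014). It gave r = 0.489 (permutation p = 0.0029, adjusted 0.032) and rho = 0.491 (p = 0.0031, adjusted 0.034) with microglia markers, and r = 0.497 (p = 0.0013, adjusted 0.019) and rho = 0.531 (p = 0.0013, adjusted 0.026) with endothelial markers. With the Sst and Npy interneuron list, of which 3 of 3 tested genes were lower in adults and 2 were called, it gave r = 0.595 (permutation p = 0.0011, adjusted 0.018) and rho = 0.517 (p = 0.0022, adjusted 0.031). Without the 2 farthest libraries the 4 values of r were 0.403, 0.36, 0.405 and 0.48. The part of these lists in the age difference of Oaz1 was not tested.

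With antibiotics and saline the ages were separate for 4 members. Beside Ass1, every adult library was above every adolescent one for Odc1 (43.72 to 47.01 against 38.44 to 43.68 CPM) and Amd1 (72.2 to 86.4 against 68.5 to 70.0 CPM). Every adult library was below every adolescent one for Oaz1 (134 to 162 against 167 to 179 CPM). None of these 3 passed the test, with adjusted p-values of 0.186, 0.188 and 0.0897 in edgeR. Srm, on the plus strand at chr4:148591513-148594619, and Sms, on the minus strand at chrX:157443851-157492287, were not called with age in any treatment. Their differences averaged over treatments were -0.04 (interval -0.11 to 0.04) and 0.06 (interval -0.01 to 0.13) on the log2 scale.

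In morphine-treated adolescents, Amd1 and Srm were lower with antibiotics than on water, and the other 3 polyamine members did not pass the test. Amd1 read 77.9, 75.1, 77.8, 75.8 and 85.3 CPM on water and morphine, and 59.9, 55.0, 56.9, 65.4 and 81.0 CPM on antibiotics and morphine. All but 1 of the antibiotic libraries lay under every water library, and replicate 5 lay among them. The mean fell from 78.4 ± 4.06 to 63.6 ± 10.5 CPM (SD, n = 5), a log2 fold change of -0.30 ± 0.07 (edgeR adjusted p = 0.00484). Without that library the estimate was -0.39. The call held in all 10 fits that left out 1 library of these groups, with adjusted p-values up to 0.0398. Amd1 was also 1.20-fold higher in adults than in adolescents on antibiotics and morphine (0.27 ± 0.07, adjusted p = 0.0424), a comparison that uses the same 5 adolescent libraries. That call was lost without any library of the groups other than adolescent replicate 5, with adjusted p-values from 0.0521 to 0.174.

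Srm fell in the same comparison, by 0.23 ± 0.07 on the log2 scale (edgeR adjusted p = 0.036). Its libraries read 45.2, 40.6, 39.5, 41.0 and 43.4 CPM on water and morphine, and 34.2, 34.8, 31.9, 39.4 and 38.2 CPM on antibiotics and morphine, and the ranges did not overlap. The call depended on single libraries. It was lost when water replicate 1, 2, 4 or 5 or antibiotics replicate 1, 2 or 3 was left out, with adjusted p-values from 0.0642 to 0.178, and with no filter on low counts (0.0995). On water, Srm with morphine was above every saline library (33.1 to 38.1 CPM), a difference of 0.23 ± 0.07 that did not pass the test (adjusted p = 0.17). The difference between the morphine effects on antibiotics and on water was -0.33 ± 0.10 for Srm (adjusted p = 0.0841) and -0.20 ± 0.10 for Amd1 (adjusted p = 0.288). Both passed without adolescent antibiotics morphine replicate 5, with adjusted p-values of 0.0479 and 0.0428.

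Sms was lower by 0.17 ± 0.07 in that comparison without passing the test (edgeR adjusted p = 0.145), Odc1 was at -0.02 ± 0.07 and Oaz1 at -0.10 ± 0.08. Asl went the other way. Its antibiotics and morphine libraries (11.0 to 14.5 CPM) were all above the water and morphine libraries (9.17 to 10.4 CPM), a difference of 0.34 ± 0.13 that missed the threshold (adjusted p = 0.0808) and passed without antibiotics morphine replicate 5 (0.0401). Thus 2 of 9 members were called where 7.56% of all genes were, and the ranges of 2 of 9 were separate where 5.92% were. Oligodendrocyte markers were higher in the antibiotics group for 7 of 7 genes without a call, at 1326 to 2052 CPM in sum against 1233 to 1496 CPM. With their level as a covariate Amd1 was at -0.34 (adjusted p = 0.00145) and Srm at -0.25 (adjusted p = 0.0329). Of the other marker lists, 7 of 8 astrocyte estimates were negative with Aqp4 called, 6 of 6 microglia estimates with C1qa called, and 4 of 6 excitatory neuron estimates with Neurod6 called. The striatal list had 3 positive and 3 negative estimates with Ppp1r1b called higher, and summed to 136 to 151 CPM against 119 to 129.8 CPM on water. Endothelial and mural markers were each negative for 5 of 6 without a call, and red blood cell markers positive for 5 of 5 without a call. GABAergic interneuron markers averaged 617 ± 22.5 CPM in sum against 586 ± 29.4 CPM on water (SD, n = 5). Oligodendrocyte precursor markers averaged 237 ± 24.0 against 253 ± 15.4 CPM, and the Sst and Npy interneuron list 251 ± 25.3 against 267 ± 22.0 CPM. The part of these lists in the result was not tested.

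**Figure D4:**
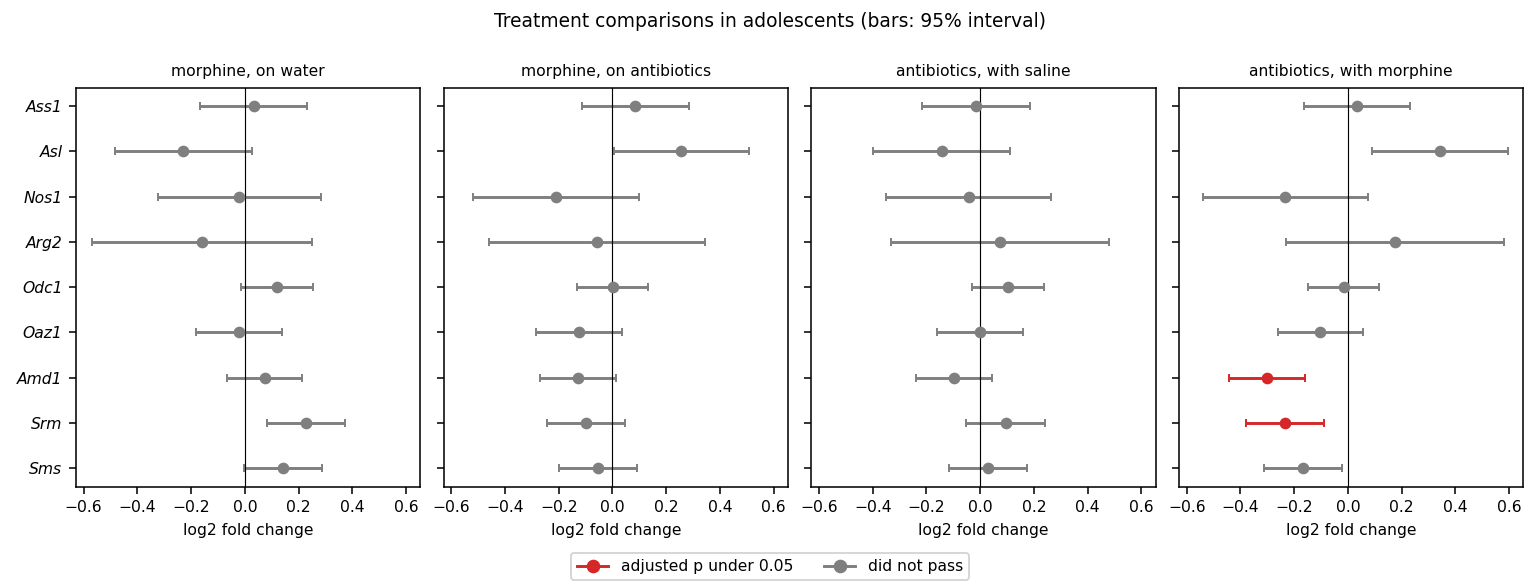
Log2 fold change of the 9 genes in the 4 treatment comparisons within adolescents, with 95% intervals; red points passed an adjusted p of 0.05 over all genes. Amd1 at -0.30 and Srm at -0.23 are red for antibiotics with morphine, and no point is red in the other 3 panels.

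Averaged over both ages and both injections, Amd1 was the single member called with antibiotics, lower by 0.14 ± 0.04 on the log2 scale (edgeR adjusted p = 0.0116), where 7.5% of all genes were called. In adults the estimate was -0.15 ± 0.07 with morphine (adjusted p = 0.58) and 0.01 ± 0.07 with saline (adjusted p = 0.98), and neither passed the test. The difference between ages in the antibiotic effect with morphine did not pass the test for Amd1 (0.15 ± 0.10, 95% interval -0.05 to 0.35, edgeR adjusted p = 0.881). With the oligodendrocyte covariate Nos1 was also lower on antibiotics (-0.15 ± 0.03, adjusted p = 0.00425), against -0.11 ± 0.08 without it.

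In the other 14 of 21 comparisons no member was called by edgeR. DESeq2 called none there either, and limma-voom with sample quality weights called Nos1 for morphine on water in adults (adjusted p = 0.0317) and for morphine on average (0.0448). In adolescents, morphine on water left 1 of 9 members at an unadjusted p under 0.05, where 0.319% of all genes were called and 13.4% passed without adjustment. The ranges of 1 of 9, Srm, were separate there, beside 2.38% of all genes. Morphine on antibiotics left 1 of 9 (2.92% and 16.3% of all genes), antibiotics with saline 0 of 9 (0.0391% and 9.75%), and the interaction 3 of 9, namely Asl, Amd1 and Srm (1.24% and 16.9%). In adults, morphine on water left 3 of 9, namely Ass1, Nos1 and Amd1 (0.475% and 11.1%), and morphine on antibiotics 2 of 9 (0.213% and 7.04%). Antibiotics left 1 of 9 with saline (0.0503% and 10.1%) and 1 of 9 with morphine (0.028% and 8.02%), and the interaction 0 of 9 (0% and 6.79%).

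For morphine averaged over ages and drinks, 1 of 9 members passed without adjustment (4.35% of all genes called and 17.6% unadjusted). That member was Nos1, lower by 0.20 ± 0.08 on the log2 scale (edgeR adjusted p = 0.141), which passed without adult antibiotics morphine replicate 1 (0.0229). In each of the 4 differences between ages in a treatment effect, 1 of 9 members passed without adjustment, and it was Srm each time. The shares of all genes called and unadjusted were 0% and 10% for morphine on water, 0% and 6.44% for morphine on antibiotics, 0.0224% and 10.1% for antibiotics with saline, and 0.00559% and 5.65% for antibiotics with morphine. The Srm differences were -0.27, 0.26, -0.29 and 0.23 on the log2 scale in that order, with adjusted p-values of 0.364, 0.692, 0.297 and 0.869. These comparisons share groups and are not independent. In the 6 remaining comparisons of 2 groups no member had separate ranges, where 1.36% to 4.09% of all genes did.

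Other genes around the route were read from lists drawn up with earlier results of these data known. Of 29 other arginine, citrulline and nitric oxide genes, 27 were tested, since Arg1, the liver-type arginase, drew at most 5 reads in a library and Otc at most 2. With age, averaged over treatments, 5 of 27 were higher and 3 lower (17.9% of all genes called in either direction), with a list median of 0.05 on the log2 scale against 0.01 for all genes. Downstream of nitric oxide, the guanylate cyclase subunit Gucy1a1 was higher in adults by 0.15 ± 0.04 (edgeR adjusted p = 0.00321) and the cGMP phosphodiesterase Pde5a by 0.27 ± 0.06 (adjusted p = 0.000619). The Nos1 adaptor Nos1ap was higher by 0.19 ± 0.05 (adjusted p = 0.00932). Gamt, which uses an arginine-derived group to finish creatine, fell by 0.38 ± 0.07 (adjusted p = 0.000103). Ddah2, which clears methylated arginines, fell by 0.35 ± 0.09 (adjusted p = 0.00295), and Pts, of tetrahydrobiopterin synthesis, by 0.17 ± 0.06 (adjusted p = 0.0317). No value with the oligodendrocyte covariate was read for the list genes, and the part of that level in their age differences was not tested.

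In adolescents given antibiotics and morphine, 3 of 27 genes of that list were lower than on water and morphine and none was higher, where 7.56% of all genes were called in either direction, a share that 3 of 27 does not stand far from. Ornithine aminotransferase (Oat), which links ornithine to glutamate and proline, fell by 0.27 ± 0.06 on the log2 scale (edgeR adjusted p = 0.00558). The amino acid transporter Slc38a3 fell by 0.33 ± 0.08 (adjusted p = 0.00894) and Ddah1 by 0.31 ± 0.08 (adjusted p = 0.0129). The list median was -0.20 against -0.01 for all genes, and 22 of 27 estimates were negative. With antibiotics averaged over the other factors 5 of 27 were lower (7.5% of all genes called in either direction), led by Slc38a3 (-0.23), Ddah1 (-0.21) and Oat (-0.15). Of the astrocyte marker list, 3 of 8 markers were called lower with antibiotics on average and 8 of 8 estimates were negative. The list summed to 3667 to 4622 CPM in adolescents on antibiotics and morphine against 4195 to 4687 CPM on water and morphine. The mean sum was also lower on antibiotics in saline adolescents and in morphine adults. In saline adults it was higher on antibiotics (4454 ± 543 against 4240 ± 357 CPM, SD, n = 5). The part of this list in these differences was not tested.

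All 20 other polyamine genes were tested. With age 2 were higher and 8 lower (17.9% of all genes called in either direction), with a list median of -0.08 on the log2 scale. The lysosomal polyamine exporter Atp13a2 fell by 0.16 ± 0.03 (edgeR adjusted p = 9.64e-06), the antizyme inhibitor Azin2 by 0.18 ± 0.04 (adjusted p = 0.000744) and Eif5a, the protein modified with hypusine from spermidine, by 0.10 ± 0.02 (adjusted p = 0.00268). Its paralog Eif5a2 was higher by 0.18 ± 0.04 (adjusted p = 0.00102) and the transporter Atp13a3 by 0.13 ± 0.03 (adjusted p = 0.0034). The part of the oligodendrocyte marker level in these age differences was not tested either. In adolescents given morphine, the 2 antizyme inhibitors went in opposite directions with antibiotics, with Azin1 at -0.26 ± 0.07 (adjusted p = 0.0119) and Azin2 at 0.28 ± 0.08 (adjusted p = 0.0175). No other gene of the 20 was called, where 7.56% of all genes were called in either direction. In the methionine cycle and salvage list, 14 of 15 were tested. With antibiotics in adolescents given morphine 2 of them were higher, beside the same 7.56% of all genes. These were the salvage enzyme Mri1 by 0.57 ± 0.13 (adjusted p = 0.00299) and Gnmt by 2.04 ± 0.52 (adjusted p = 0.0103), the latter at a mean of only 0.625 CPM. With age Ahcyl2 alone was called, higher by 0.12 ± 0.02 (adjusted p = 0.000207), where 17.9% of all genes were called.

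**Figure D5:**
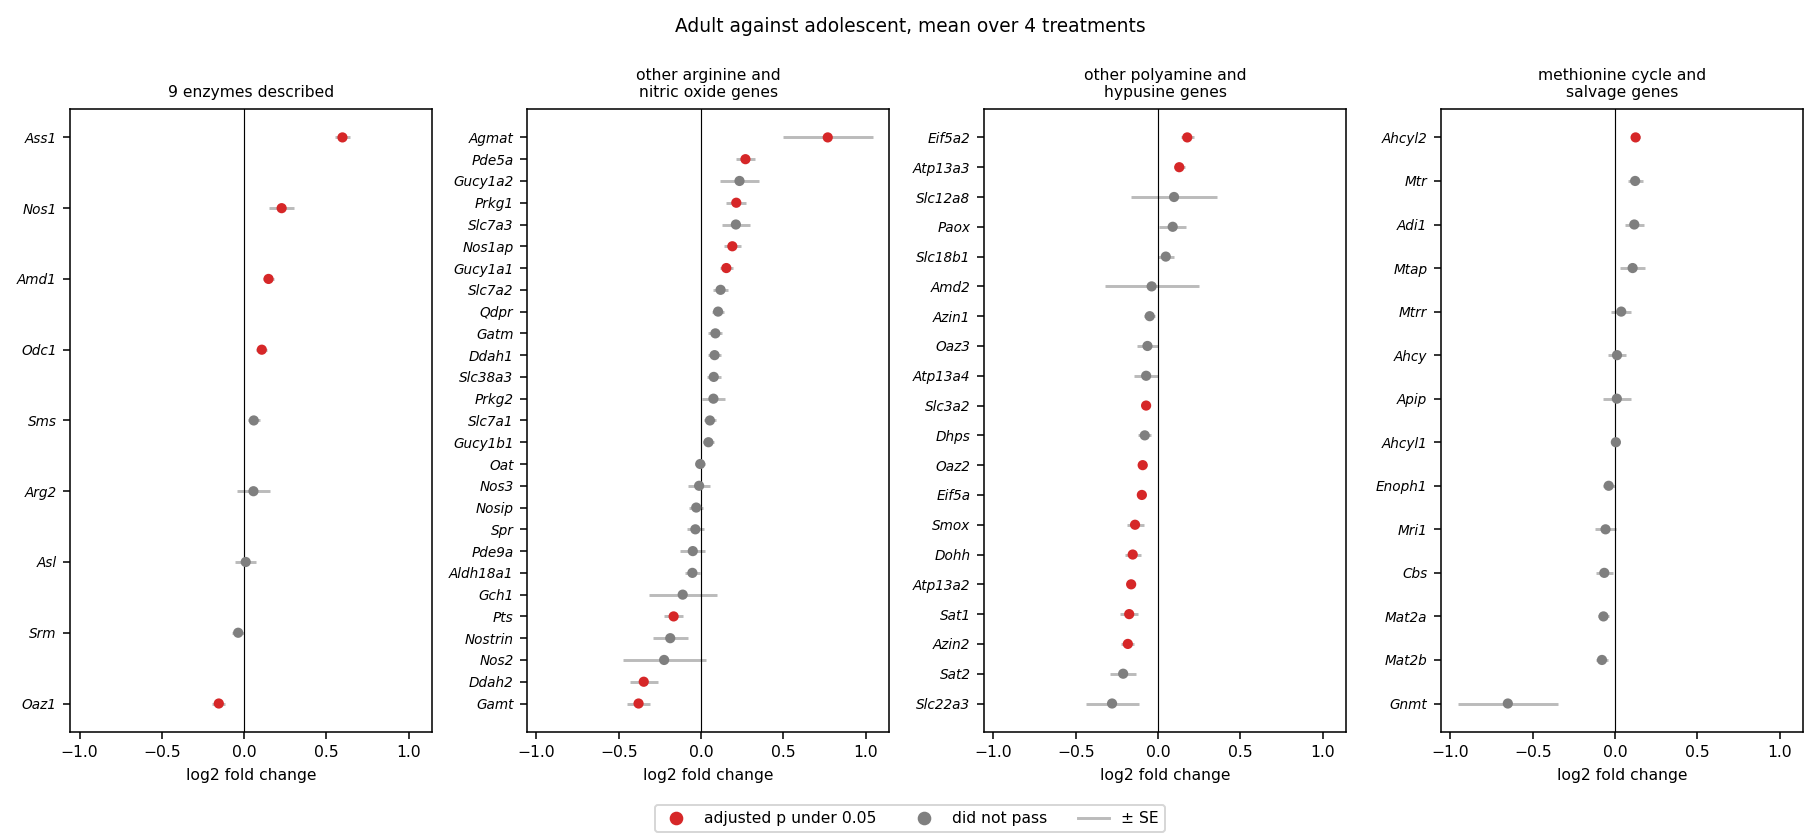
Log2 fold change of adults over adolescents, averaged over 4 treatments, for the 9 genes and 3 lists of other genes of the route, with bars for the SE; red points passed an adjusted p of 0.05 over all genes. Ass1 at 0.60 is far to the right of the other members, and 8 of 20 other polyamine genes are red to the left of 0 against 2 to the right.

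Members rarely varied together from library to library. Of 36 pairs of members, with group means removed, 3 passed the adjustment over 135 relations for both coefficients. Ass1 and Nos1 varied together at r = 0.635 (permutation p = 1e-04, adjusted 0.0061) and rho = 0.612 (p = 0.0004, adjusted 0.011). Without the 2 farthest libraries r was 0.635, and it was 0.722 in adolescents and 0.559 in adults. Both also followed the oligodendrocyte markers, as given above. Nos1 and Sms gave r = 0.488 (permutation p = 0.0028, adjusted 0.032) and rho = 0.49 (p = 0.0032, adjusted 0.034), with 0.447 after leaving out 2 libraries. Arg2 and Sms gave r = 0.512 (permutation p = 0.0034, adjusted 0.035) and rho = 0.478 (p = 0.0041, adjusted 0.036), with 0.328 after leaving out 2 libraries. Odc1 and Oaz1 gave r = -0.441 (permutation p = 0.014, adjusted 0.076) and rho = -0.351 (p = 0.05, adjusted 0.19) and did not pass.

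Sms correlated with the excitatory neuron markers at r = 0.752 (permutation p = 0.00018, adjusted 0.0061) and rho = 0.523 (p = 0.0026, adjusted 0.031), with 0.6 after leaving out 2 libraries. It was 0.722 in adolescents and 0.779 in adults. With the Sst and Npy interneuron list Sms gave r = -0.673 (permutation p = 0.00028, adjusted 0.0063) and rho = -0.604 (p = 0.00027, adjusted 0.011), with -0.482 after leaving out 2 libraries. As a description over 40 libraries with no test, the gene with the pattern most like each member by Pearson correlation of log2 CPM, group differences included, was sought among 11174 genes. It was Prrc2b for Ass1 (0.783), Smoc2 for Nos1 (0.87), Acbd4 for Asl (0.569) and Ccdc112 for Arg2 (0.596). In the polyamine branch it was Macrod2 for Odc1 (0.739), Atp6v1f for Oaz1 (0.875), Smim10l1 for Amd1 (0.866), Cnot9 for Srm (0.683) and Prkce for Sms (0.9). Next came Itpr1 and Dzank1 for Ass1 (0.782 and 0.773), Celf4 and Pter for Nos1 (0.843 and 0.837), Rpl11 and Dbi for Oaz1 (0.856 and 0.855), Ina and Caprin1 for Amd1 (0.833 and 0.83) and Syt4 and Dnajc6 for Sms (0.884 and 0.877). These libraries share age and cell composition, so a likeness in pattern includes both.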

How the data were processed

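Poly(A) RNA from 40 brain libraries was extracted with a column kit and prepared with a fast RNA-seq kit, per the labels' protocols. The authors deposited raw read counts per Ensembl gene. Per the submitters' processing notes, STAR 2.7.10a, DESeq2 and the build mm10 were used; the sources used here give neither annotation nor strand setting. Totals were 8636712 to 12098769 counts per library, all of them assigned to genes, and replicate pairs differed beyond sampling noise (chi-square per degree of freedom 2.142 to 14.71), so none was merged. Versions were removed from the IDs and 91.4% of 56980 matched a symbol in GENCODE M21.

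Genes were filtered with edgeR's filterByExpr (minimum count 10, total 15), scaled by TMM and fitted with edgeR 4.0.16's robust quasi-likelihood model in R 4.3.3, with 8 group means over all 40 libraries. The 21 contrasts were tested two-sided, with Benjamini-Hochberg adjustment over 17880 genes and a call at an adjusted p under 0.05. Standard errors were the estimate over the root of F, and 95% intervals used 52.9 degrees of freedom. The biological coefficient of variation was 9.14%. CPM used TMM-scaled library sizes. Correlations used log2 CPM with a prior count of 2.

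The alternatives were RLE scaling, no filter, DESeq2 1.42.0, another filter (1 CPM or more in 5 or more libraries, 17995 genes), limma-voom (limma 3.58.1) with quality weights, only the groups compared, a replicate block, each library left out and, added after the data were seen, the oligodendrocyte level as a covariate. The scripts were tested on simulated data. Members and lists were chosen with earlier results of these data known. All 9 members are named; of each list, up to 3 called genes per direction and comparison are named, smallest p first, and for each member up to 3 most alike genes, those averaging 5 CPM or more. Markers named beside a result were chosen after their values were seen.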

Additional observations from a re-analysis of the deposited data

Results flagged for a closer look

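In each of 72 combinations of member and group, the library at either end was compared with its 4 neighbours by the gap to the nearest over the whole range (Dixon's ratio, critical value 0.71). Chance alone sets apart about 1 in 20 such groups, and 8 of 72 stood apart here.

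In adolescents, Asl read 14 CPM in antibiotics saline replicate 1, with the other 4 libraries at 9.33 to 9.7 CPM. Arg2 read 5.92 CPM in antibiotics morphine replicate 3, with the others at 4.47 to 4.7 CPM. Amd1 read 63.9 CPM in water saline replicate 5, with the others at 75.4 to 79.8 CPM, and 85.3 CPM in water morphine replicate 5, with the others at 75.1 to 77.9 CPM. The same water saline replicate 5 was high for Oaz1, at 190 CPM with the others at 167 to 172 CPM.

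In adults, Nos1 read 81.2 CPM in water morphine replicate 3, with the others at 56.4 to 59.2 CPM. Arg2 read 3.14 CPM in antibiotics saline replicate 2, with the others at 4.63 to 5.13 CPM. Odc1 read 40.6 CPM in water saline replicate 3, with the others at 44.7 to 45.6 CPM.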

How the results depend on the processing

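The Ass1 difference between ages passed the threshold in all 4 treatments and on average under every alternative listed, and RLE scaling, the filter at 1 CPM (which kept slightly more genes, so it was not stricter) and DESeq2 moved no count of members called by over 1.5 times. With no filter on low counts, 1 member was called for antibiotics in adolescents given morphine (Srm lost), 2 with age on antibiotics and saline (Oaz1 gained, adjusted p = 0.0184) and 3 with age on average (Nos1, adjusted p = 0.0722, and Odc1 lost). limma-voom called 4 members for antibiotics in adolescents given morphine (Asl, 0.0263, and Sms, 0.0489, gained), 1 for morphine on water in adults and 1 for morphine on average, Nos1 in both. Fits on only the groups compared called 1 for morphine on water in adults (Nos1, 0.00692), 2 with age on antibiotics and saline (Oaz1, 0.0132) and 1 with age on antibiotics and morphine (Amd1 lost, 0.111); Srm (0.0589) was lost and Asl (0.0449) gained for antibiotics in adolescents given morphine. With the oligodendrocyte covariate, 2 were called with antibiotics on average and 2 with age on average. The age difference of Nos1 changed sign to -0.0859 and did not pass the test (edgeR adjusted p = 0.25). The cause of this and of the other changes was not tested.

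Whether the replicate numbers pair the samples was not settled. Same-numbered libraries correlated at -0.221 to 0.383 in their deviations. Of 40 libraries, 16 correlated best with their own number among the 5, which is more than an even spread over the numbers would give. With the number as a replicate block within age, 2 members were called with age on antibiotics and saline (Oaz1, 0.0369) and 1 with age on antibiotics and morphine (Amd1, 0.0532), and no other count of members moved.

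Leaving out each library in turn gave 1 to 3 members for antibiotics in adolescents given morphine, 1 to 2 with age on antibiotics and morphine, 0 to 1 for morphine on antibiotics in adolescents (Amd1, adjusted p = 0.0269, without adolescent antibiotics morphine replicate 5), 0 to 2 for the adolescent interaction, 0 to 1 for morphine on average and 4 to 5 with age on average. The libraries behind these changes are named beside each result, except for the 9 that end the Amd1 age call: adolescent antibiotics morphine replicates 1 to 4 and all 5 adult ones. Over all genes, antibiotics in adolescents given morphine called 1351 genes, 2638 with limma-voom and 634 to 2263 without single libraries; age on antibiotics and saline called 1068, and 560 to 1115 without single libraries; age on average called 3192, and 1451 with the covariate. Depth limits Arg2, with 28 to 70 reads per library, most.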
